A study of Xenopus laevis with 4 samples.

Results

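Motile cilia and intraflagellar transport genes were followed in posterior explants of *Xenopus laevis* tailbud embryos after 3 h with 0.5 mM picrotoxin, a blocker of the chloride channel of GABA-A receptors. They were chosen by gene symbol, by a rule that uses no measured value but was set with earlier results of these data known. Taken were the symbols beginning with dnah, dnai and dnaaf, numbered dnal, ift, bbs, rsph and spag symbols, tekt and cfap symbols, and the transcription and cell fate regulators *foxj1*, *rfx2*, *rfx3*, *mcidas*, *ccno*, *foxn4* and *myb*. This gave 117 gene models of the 39176 in the table, 78 of them L and 39 of them S copies, under 95 base symbols. *Xenopus laevis* is allotetraploid, so many genes have an L and an S copy, and 22 of the 95 base symbols were present here as both.

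The picrotoxin group had 2 libraries and the control group had 2. Explants of 3 embryos at stage 26 were pooled per library, after a transverse cut behind the otic vesicle and with the ventral yolk taken off at the end. Control explants were kept for the same 3 h, and the sources used here do not say whether they received a vehicle. No strain, sex or transgene is named in the labels. The pools hold a mix of tissues from behind the ear, so that fewer ciliated cells and less RNA per ciliated cell cannot be told apart.

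Motile cilia beat by means of dynein motors that sit in rows on the microtubule doublets of the axoneme, the core of the cilium. Radial spokes pass signals from the central pair of microtubules to these motors. Cilia are built and maintained by intraflagellar transport (IFT), in which protein trains carry cargo along the axoneme, and by the BBSome, an adaptor complex for membrane proteins. In *Xenopus* tailbud embryos the epidermis is covered with multiciliated cells that move fluid over the skin, and ciliated cells also line the floor plate and the openings of the pronephros. The factors Mcidas, Foxj1 and Rfx2 turn on the genes for the cilia of multiciliated cells.

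Libraries held 20285273 and 20974160 estimated counts with picrotoxin and 18164631 and 20660589 in control. Of these, 42.0% and 25.1% with picrotoxin and 38.0% and 39.6% in control fell on ribosomal RNA, so picrotoxin replicate 2 was the deepest library for other genes. The cilia genes together took 0.147% and 0.146% of the counts outside ribosomal RNA with picrotoxin and 0.158% and 0.148% in control. The share in control replicate 1 thus stood above the other 3 libraries, which lay close together. Of the 117 gene models, 114 had enough counts to test, with means of 0.383 to 31.0 CPM (counts scaled to library size, with the trimmed mean of M values, TMM). CPM is not corrected for transcript length, so levels are compared below between libraries and not between genes.

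No cilia gene passed the test of picrotoxin against control. With edgeR's quasi-likelihood test and an adjusted p threshold of 0.05 over all 26752 genes, 0 of 114 members were called, beside 47 genes or 0.176% of all genes tested (0.0822% higher and 0.0935% lower with picrotoxin). At an unadjusted p under 0.05, 2 of 114 members were lower, *dnai3.L* and *dnaaf2.L*, and 0 higher. Over all 26752 genes tested, 1113 were lower and 895 higher at that level, together 2008 or 7.51%. DESeq2, which gave an adjusted p to 99 of the 117 members, called 0 as well, with 0 at an unadjusted p under 0.05. The smallest adjusted p of any member was 0.523. At the background share of calls, a set of this size would hold few or no called genes, so the 0 is close to the background.

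These libraries bounded the size of a change for many members. Intervals cover the spread between these pools. The median standard error of a member's log2 fold change was 0.167, with a range of 0.109 to 0.610. The 95% interval lay within a 1.5-fold change in both directions for 77 of the 114 members, and within a 2-fold change for 106. For the other 8 the interval reached past a 2-fold lower level with picrotoxin, so that a change of that size was not excluded.

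The log2 fold changes leaned slightly to the lower side. Over the 114 members the median was -0.07, with 78 below 0 and 36 above, beside a median of 0.00 over all genes tested, of which 50.1% were below 0. Both picrotoxin libraries lay below both control libraries for 31 members (27.2%), beside 18.9% of all genes tested. Both lay above for 10 members (8.77%), beside 18.2% of all genes tested.

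**Figure D1:**
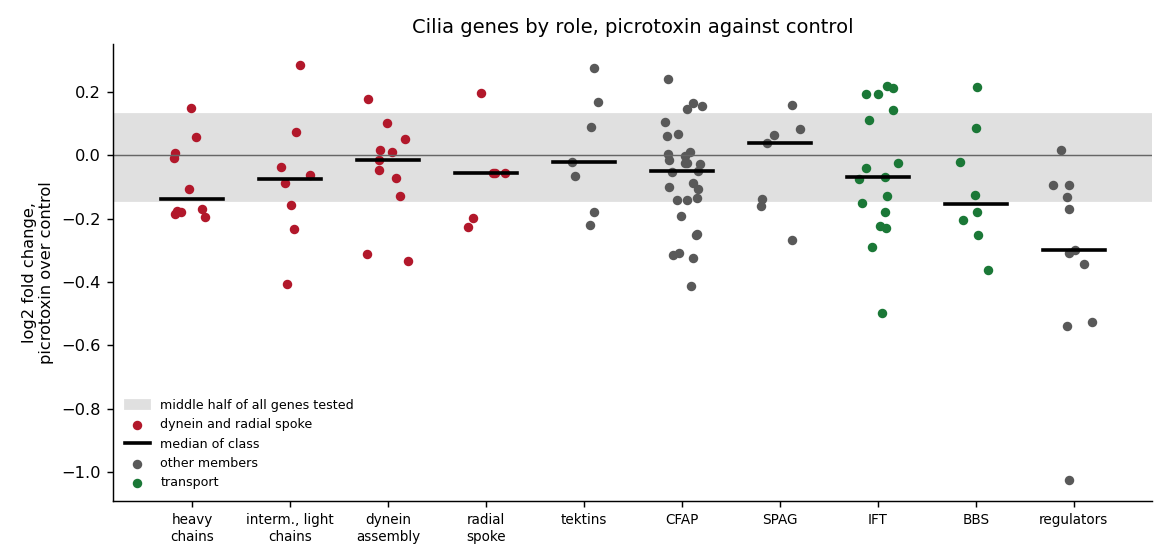
Log2 fold change of picrotoxin over control (y axis) for each of the 114 tested members (points), grouped by role (x axis), with the median of each class as a black bar and the interquartile range of all genes tested as a grey band. Most points lie within or near the band, and the regulators reach lowest, with *mcidas.L* at -1.02.

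Over all members this lean went with control replicate 1, though not in every class. That library held the highest value of the 4 for 57 of the 114 members, against 25.9% of all genes tested. It was highest for 7 of 10 dynein heavy chain genes, 16 of 29 CFAP genes and 8 of 11 regulators. The same held for 4 of 7 tektin and 7 of 17 IFT genes, but only for 2 of 11 dynein assembly and 1 of 8 BBS genes. Without control replicate 1, the median over all members was 0.01, and the picrotoxin libraries were both below the remaining control library for 37 members and both above it for 37, near the 33.9% and 33.0% of all genes tested. Without control replicate 2 the median was -0.13. The picrotoxin libraries were then both below the remaining control library for 68 members (59.6%) and both above it for 18 (15.8%). Over all genes tested these shares were 34.8% and 34.4%.

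Class medians moved unequally with the library left out. Without control replicate 1 the median was above 0 for heavy chains (0.02), intermediate and light chains (0.05), radial spokes (0.07), tektins (0.10) and CFAP genes (0.07). In the same fit it was below 0 for dynein assembly (-0.07), BBS genes (-0.14) and regulators (-0.11), and at 0.00 for IFT genes. Dynein assembly genes, BBS genes and regulators therefore did not come up to 0 when that library was left out. Of 12 regulators in that fit, 11 were below 0, beside 13389 of all 27449 genes in the same fit.

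Dynein and radial spoke genes, which make the beating machinery, were set against the transport genes of the IFT trains and the BBSome. The first group had 35 gene models, all tested, with a median log2 fold change of -0.06, 24 below 0 and 0 called. The transport group had 26 gene models, 25 of them tested, with a median of -0.08, 17 below 0 and 0 called. The medians of both groups therefore stood within 0.02 of each other on the log2 scale. The first group is not made of motor genes alone. Its 11 dynein assembly genes had a median of -0.02 and its 10 heavy chain genes one of -0.14.

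Between single libraries the groups differed by more than that. Relative to the mean of the 4 libraries, the median log2 level of dynein and radial spoke genes was 0.00 and -0.08 in picrotoxin replicates 1 and 2, and 0.10 and -0.02 in control replicates 1 and 2. For transport genes it was -0.05 and -0.01 with picrotoxin and 0.02 and 0.00 in control. Subtracting transport from dynein and spoke gave 0.05 and -0.06 with picrotoxin and 0.08 and -0.02 in control. The 2 libraries of each group lay on opposite sides of 0, so the groups overlapped. The spread of this difference within a group was 0.08 (SD, n = 2 per group), larger than the difference between the groups. Without control replicate 2 the difference of the medians was -0.09, the farthest from the value with all libraries.

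**Figure D2:**
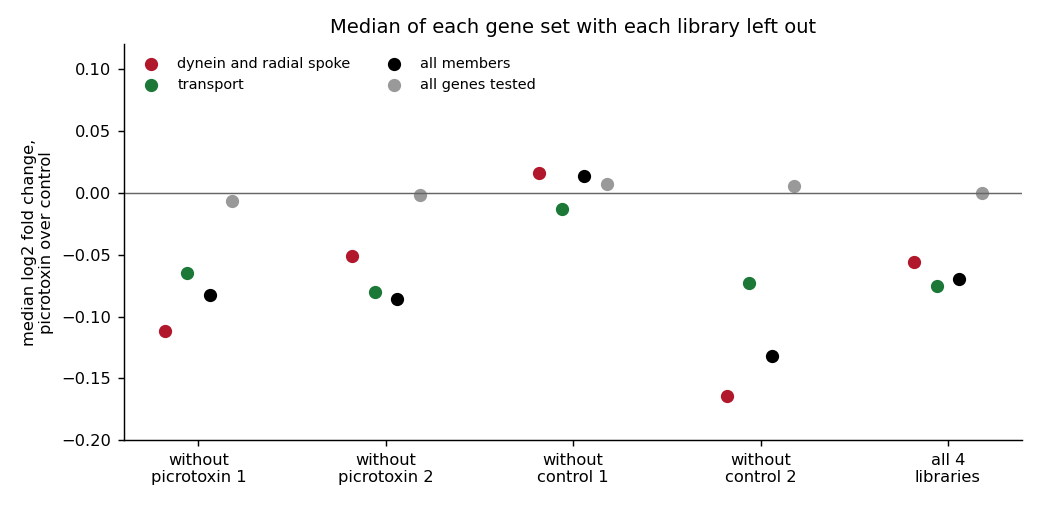
Median log2 fold change of picrotoxin over control (y axis) for dynein and radial spoke genes, transport genes, all members and all genes tested (colours), with each library left out in turn and with all 4 (x axis). Member sets lie between -0.16 and 0.02, and they come up to about 0 when control replicate 1 is left out.

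Regulators came first in the order of the pathway and were the class with the lowest median in the fit of all 4 libraries. Of 13 regulator gene models 11 were tested, with a median log2 fold change of -0.30, 10 below 0 and 0 called. Leaving out each library in turn gave medians of -0.30 to -0.11, the value nearest 0 being that without control replicate 1. BBS genes were the lower class without control replicate 1 (-0.14 against -0.11) and without picrotoxin replicate 2 (-0.26 against -0.25). With only genes at a mean of at least 1 CPM, the regulator median was -0.17 and that of BBS genes -0.15. Picrotoxin replicate 2 gave the lowest value for 6 of the 11 regulators tested and picrotoxin replicate 1 for the other 5. Over all 26752 genes tested, picrotoxin replicate 2 was the lowest library for 6573 and picrotoxin replicate 1 for 7022.

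*Foxj1*, the forkhead factor that drives motile cilia genes, did not pass the test in either copy. The *foxj1.L* copy had 5.43 and 5.40 CPM with picrotoxin and 7.79 and 5.60 CPM in control, and *foxj1.S* had 7.35 and 6.10 CPM with picrotoxin and 6.31 and 6.91 CPM in control. Both picrotoxin libraries lay below both control libraries for the L copy, control replicate 2 by a narrow margin, and the groups overlapped for the S copy. The log2 fold changes were -0.30 ± 0.185 (SE, adjusted p = 0.770, edgeR) for *foxj1.L* and 0.02 ± 0.17 (adjusted p = 0.991) for *foxj1.S*. Without control replicate 1, *foxj1.L* was at -0.04.

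*Mcidas* encodes multicilin, which sets the multiciliated cell fate, and it was scarcely detected at this stage. Picrotoxin libraries held 6 and 8 counts of *mcidas.L* and control libraries 12 and 13. Both control libraries lay above both picrotoxin libraries, at 0.682 and 0.656 CPM against 0.320 and 0.330 CPM with picrotoxin. The log2 fold change was -1.02 ± 0.54 (SE; 95% interval -2.14 to 0.09; adjusted p = 0.703, edgeR), the lowest of all members and not past the threshold. It stayed between -1.05 and -0.996 with each library left out. The *mcidas.S* copy, with 2 and 2 counts with picrotoxin and 3 and 7 in control, was not tested.

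*Ccno* encodes cyclin O, needed to make the many basal bodies of a multiciliated cell, and its S copy was the main source of counts. It had 10.4 and 12.1 CPM with picrotoxin and 13.4 and 10.7 CPM in control, with overlapping groups and a log2 fold change of -0.09 ± 0.145 (SE). The *ccno.L* copy had 4 and 11 counts with picrotoxin and 9 and 7 in control (log2 fold change -0.31 ± 0.61).

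RFX factors bind the promoters of many ciliary genes together with Foxj1. *Rfx2.S* had 5.97 and 5.61 CPM with picrotoxin and 6.54 and 5.80 CPM in control (log2 fold change -0.09). *Rfx3.S* had 6.77 and 5.28 CPM with picrotoxin and 6.65 and 6.46 CPM in control (-0.13), and *rfx3.L* had 1.86 and 1.07 CPM with picrotoxin and 2.50 and 1.71 CPM in control (-0.54 ± 0.33, SE). In all 3 copies the groups overlapped.

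*Foxn4* and *myb* act in multiciliated cells, and *myb* also in blood progenitors. *Foxn4.L* had 1.76 and 2.60 CPM with picrotoxin and 2.50 and 3.08 CPM in control (log2 fold change -0.34). *Myb.L* had 3.09 and 2.56 CPM with picrotoxin and 3.30 and 3.03 CPM in control (-0.17), and *myb.S* had 0.852 and 1.20 CPM with picrotoxin and 1.53 and 1.46 CPM in control (-0.53 ± 0.36, SE). Only in *myb.S* among these copies did the groups not overlap. *Foxn4.S*, with 6 and 5 counts with picrotoxin and 5 and 12 in control, was not tested.

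**Figure D3:**
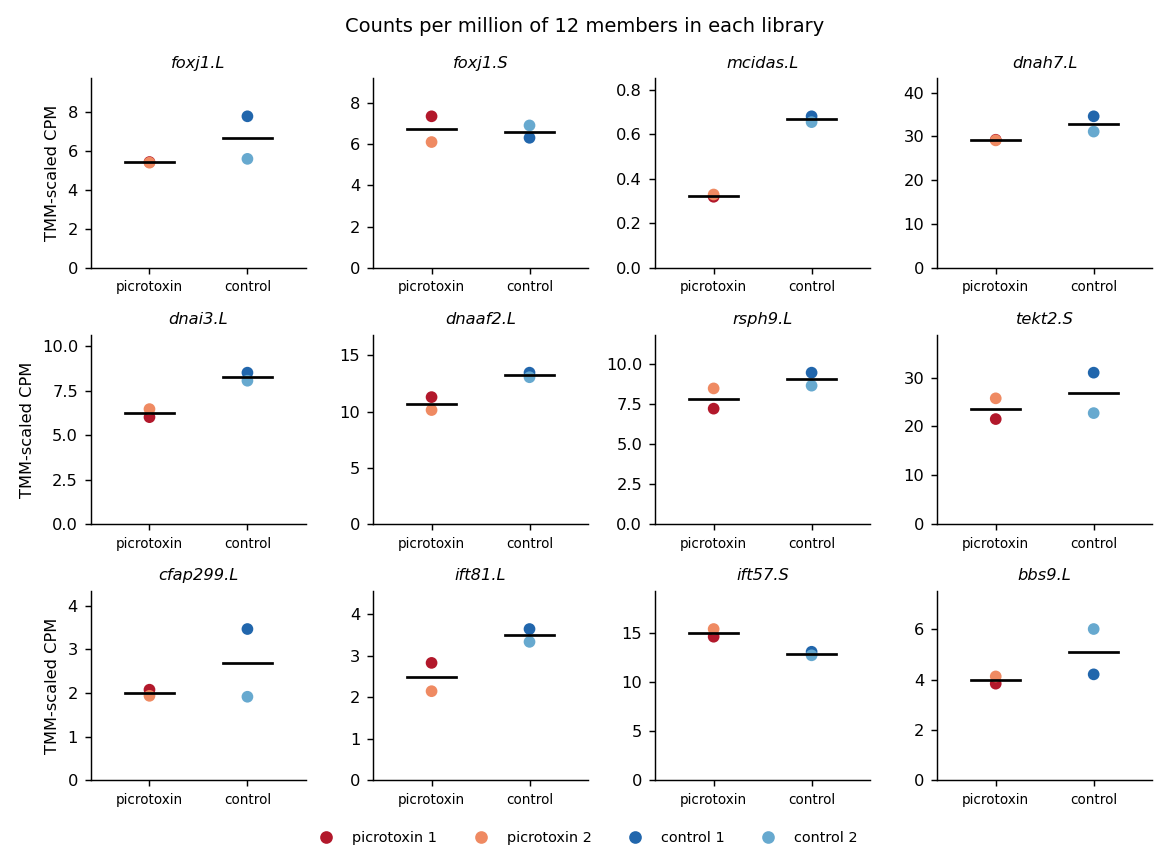
TMM-scaled CPM (y axes, each from 0) of 12 members in the 2 picrotoxin and 2 control libraries (points), with group means as bars. The groups overlap for *foxj1.S*, *tekt2.S* and *cfap299.L*; of the other 9, only *ift57.S* is higher with picrotoxin.

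Dynein heavy chains are the motor subunits, *dnah5*, *dnah9* and *dnah11* in the outer arms and *dnah3* and *dnah7* in the inner arms. All 10 were tested, with a median of -0.14, a range of -0.20 to 0.15 and 0 called. *Dnah7.L* had 29.2 and 29.1 CPM with picrotoxin and 34.6 and 31.1 CPM in control (log2 fold change -0.17 ± 0.11, SE; adjusted p = 0.776, edgeR). *Dnah9.S* had 15.7 and 17.7 CPM with picrotoxin and 20.3 and 17.8 CPM in control (-0.18 ± 0.12). Both control libraries were above both picrotoxin libraries for each of these, *dnah9.S* by a narrow margin in 1 pair.

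In the outer arm gene *dnah5.L* the groups overlapped, at 15.6 and 13.2 CPM with picrotoxin and 18.3 and 14.2 CPM in control (log2 fold change -0.18). *Dnah11.L* had 3.57 and 1.90 CPM with picrotoxin and 2.96 and 3.18 CPM in control (-0.20), the picrotoxin pair spanning the control pair. *Dnah3.S* had the highest log2 fold change of the class, at 12.3 and 10.5 CPM with picrotoxin and 11.0 and 9.48 CPM in control (0.15). Heavy chain genes varied together between pools of a group. Their median level relative to the 4 libraries was 0.08 in picrotoxin replicate 1 and -0.13 in picrotoxin replicate 2, which was the lowest library for 6 of the 10 and had the low ribosomal RNA share. It was 0.14 in control replicate 1 and -0.03 in control replicate 2. The median fold change was 0.05 without picrotoxin replicate 2 and 0.02 without control replicate 1. The part of ribosomal RNA content in this was not tested.

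Intermediate and light chains hold the motors in place and regulate them. All 8 gene models were tested, with a median of -0.08, 6 below 0 and 0 called, and medians of -0.18 to 0.05 with each library left out. *Dnai3.L*, an inner arm intermediate chain gene, had the smallest p of all members, with 6.02 and 6.47 CPM with picrotoxin and 8.52 and 8.07 CPM in control. The groups did not overlap and the log2 fold change was -0.41 ± 0.16 (SE; adjusted p = 0.523, edgeR). It ran from -0.46 to -0.36 with each library left out. *Dnai4.S*, also of the inner arm, had 3.73 and 4.41 CPM with picrotoxin and 4.66 and 4.94 CPM in control (-0.23).

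Other chains lay closer to 0 or above it. The outer arm gene *dnai1.L* had 11.8 and 11.3 CPM with picrotoxin and 12.62 and 11.95 CPM in control (log2 fold change -0.09). The light chain gene *dnal4.S* had 21.4 and 20.5 CPM with picrotoxin and 19.6 and 20.2 CPM in control (0.08). *Dnai7.L* had 4.16 and 4.08 CPM with picrotoxin and 3.64 and 3.13 CPM in control (0.29 ± 0.21, SE), the highest log2 fold change of all members.

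Dynein assembly factors fold and join the arms in the cytoplasm before they enter the cilium. All 11 gene models were tested, with a median of -0.02, 6 below 0 and 0 called, and medians of -0.08 to -0.01 with each library left out. *Dnaaf2.L*, which encodes a cochaperone for heavy chain folding, had 11.3 and 10.1 CPM with picrotoxin and 13.5 and 13.1 CPM in control. The groups did not overlap (log2 fold change -0.31 ± 0.14, SE; adjusted p = 0.588, edgeR). *Dnaaf3.L* had 1.598 and 1.81 CPM with picrotoxin and 2.05 and 2.27 CPM in control (-0.33 ± 0.29). *Dnaaf9.S* had 3.09 and 2.72 CPM with picrotoxin and 2.27 and 2.82 CPM in control (0.18), with overlapping groups.

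Radial spoke genes, 6 gene models and all tested, had a median of -0.06 and 0 called, and medians of -0.20 to 0.07 with each library left out. The spoke head genes were *rsph1.L*, with 14.7 and 18.7 CPM with picrotoxin and 18.2 and 16.6 CPM in control (log2 fold change -0.06), and *rsph9.L*, with 7.19 and 8.45 CPM with picrotoxin and 9.43 and 8.62 CPM in control (-0.20). *Rsph14.L* had 4.21 and 3.63 CPM with picrotoxin and 4.43 and 4.69 CPM in control (-0.23). *Rsph10b.S* was at 3.94 and 3.71 CPM with picrotoxin and 3.98 and 2.72 CPM in control (0.20). The groups overlapped for *rsph1.L* and *rsph10b.S*, and did not for *rsph9.L* and *rsph14.L*.

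Tektins form filaments inside the doublet microtubules. The 7 gene models, all tested, had a median of -0.02 and 0 called. The median was 0.10 without control replicate 1 and 0.09 without picrotoxin replicate 1, against -0.13 without control replicate 2. *Tekt1.L* had 12.57 and 13.1 CPM with picrotoxin and 15.8 and 14.1 CPM in control (log2 fold change -0.22 ± 0.13, SE), without overlap. *Tekt2.S* had 21.5 and 25.8 CPM with picrotoxin and 31.0 and 22.7 CPM in control (-0.18), and *tekt2.L* had 3.46 and 5.36 CPM with picrotoxin and 3.75 and 3.63 CPM in control (0.27). Tektins had the largest gaps between pools of the same treatment among the structural classes. Their median level was -0.13 and 0.10 in picrotoxin replicates 1 and 2, and 0.19 and -0.13 in control replicates 1 and 2.

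Radial spoke and CFAP genes followed the same order of libraries as the tektins. For CFAP genes, cilia and flagella associated proteins of many parts of the axoneme, the median level was -0.05 and 0.03 with picrotoxin and 0.13 and -0.09 in control. For spoke genes it was -0.07 and 0.04 with picrotoxin and 0.17 and -0.09 in control. In all 3 classes control replicate 1 and picrotoxin replicate 2 were the upper libraries. The summed CPM of the multiciliated cell markers outside the members was 517 and 545 with picrotoxin and 558 and 514 in control, most of it from the tubulin gene *tubb4b*, which is not confined to cilia. Of these 11 gene models 8 were tested, with 0 called and a median of 0.07, and *tppp3.S* was at 0 in all libraries. Their median level was 0.04 and -0.03 with picrotoxin and 0.07 and -0.08 in control, so that picrotoxin replicate 1 stood above replicate 2, unlike in the 3 classes. How far pools differed in their number of multiciliated cells was not tested.

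**Figure D4:**
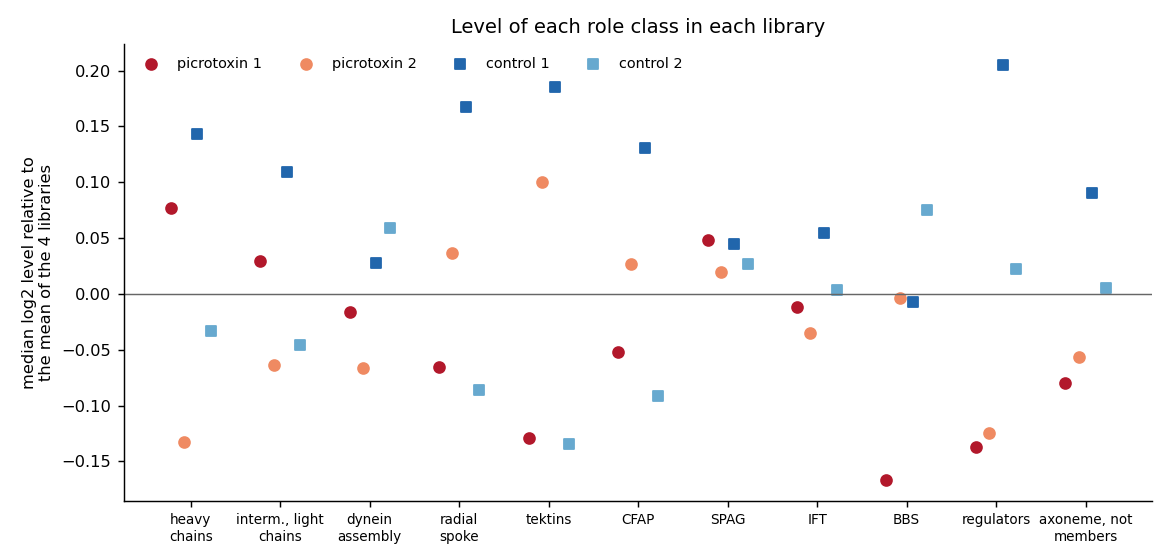
Median log2 level of each role class, and of other axoneme genes that are not members (x axis), in each library relative to the mean of the 4 libraries (y axis), with circles for picrotoxin and squares for control. Control replicate 1 is the highest library for most classes, and the libraries of a group often lie farther apart than the groups, as for tektins at 0.19 and -0.13 in control.

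All 29 CFAP gene models were tested, with a median of -0.05, 20 below 0, 0 called and a range of -0.41 to 0.24. The median was 0.07 without control replicate 1, with 9 of 29 below 0, and -0.13 without control replicate 2. *Cfap299.L* was lowest, at 2.08 and 1.94 CPM with picrotoxin and 3.47 and 1.92 CPM in control (log2 fold change -0.41 ± 0.29, SE). Its value rested on control replicate 1, without which it was at 0.07. *Cfap74.L*, of the central apparatus, was highest, at 5.27 and 4.45 CPM with picrotoxin and 4.32 and 3.88 CPM in control (0.24). *Cfap44.L* had 13.5 and 13.9 CPM with picrotoxin and 13.0 and 13.2 CPM in control (0.07). The doublet protein gene *cfap52.L* had 14.1 and 16.1 CPM with picrotoxin and 12.8 and 14.2 CPM in control (0.17), and *cfap52.S* had 3.25 and 2.43 CPM with picrotoxin and 4.32 and 2.77 CPM in control (-0.32).

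The 7 SPAG gene models, all tested, had a median of 0.04, medians of -0.09 to 0.02 with each library left out and 0 called, but symbols of this kind do not name 1 function. *Spag6* and *spag17* belong to the central apparatus and *spag1* to dynein assembly, while *spag9* encodes an adaptor for kinesin and dynein outside cilia. *Spag6.L* had 7.67 and 7.63 CPM with picrotoxin and 8.64 and 9.73 CPM in control (log2 fold change -0.27 ± 0.15, SE), and *spag6.S* had 3.09 and 3.59 CPM with picrotoxin and 3.86 and 3.63 CPM in control (-0.16). Neither copy overlapped between groups. *Spag17.L* had 5.59 and 5.69 CPM with picrotoxin and 6.02 and 4.14 CPM in control (0.16). *Spag1.S* had 7.56 and 7.34 CPM with picrotoxin and 7.05 and 7.01 CPM in control (0.08).

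IFT genes encode the trains that serve both motile and immotile cilia. Of 18 gene models 17 were tested, with a median of -0.07, 11 below 0 and 0 called, and medians of -0.07 to 0.00 with each library left out. *Ift81.L*, a train subunit that binds tubulin, had 2.82 and 2.14 CPM with picrotoxin and 3.64 and 3.33 CPM in control. The groups did not overlap (log2 fold change -0.50 ± 0.24, SE; adjusted p = 0.671, edgeR), and the value ran from -0.70 to -0.30 with each library left out. *Ift80.L* had 6.87 and 7.67 CPM with picrotoxin and 9.55 and 8.32 CPM in control (-0.29 ± 0.16), also without overlap.

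Other train subunits lay on the opposite side. *Ift57.S*, of the anterograde IFT-B complex, had 14.6 and 15.4 CPM with picrotoxin and 13.1 and 12.7 CPM in control (log2 fold change 0.22 ± 0.13, SE; adjusted p = 0.744, edgeR). *Ift140.L*, of the retrograde IFT-A complex, had 6.87 and 6.76 CPM with picrotoxin and 5.80 and 5.95 CPM in control (0.21 ± 0.17). The groups did not overlap for either gene, and leaving out each library gave 0.18 to 0.26 for *ift57.S* and 0.20 to 0.23 for *ift140.L*. Both directions were thus seen among members of the same transport machinery, none past the threshold.

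BBS genes, 8 gene models and all tested, had a median of -0.15, 6 below 0 and 0 called. The median was -0.26 without picrotoxin replicate 2, -0.07 without picrotoxin replicate 1 and -0.06 without control replicate 2. The BBSome subunit gene *bbs9.L* had 3.84 and 4.12 CPM with picrotoxin and 4.21 and 6.002 CPM in control (log2 fold change -0.36 ± 0.21, SE). Without control replicate 2, the high library, it was at -0.08. *Bbs1.L* had 11.7 and 10.4 CPM with picrotoxin and 9.49 and 9.48 CPM in control (0.22 ± 0.14), and *bbs5.L* had 22.2 and 26.2 CPM with picrotoxin and 24.9 and 27.9 CPM in control (-0.12). *Bbs10.L*, which encodes a chaperonin-like protein for BBSome assembly, had 4.21 and 4.37 CPM with picrotoxin and 4.66 and 5.55 CPM in control (-0.25). The median level of BBS genes was -0.17 and 0.00 with picrotoxin and -0.01 and 0.07 in control, with control replicate 2 the upper library.

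The division of counts between L and S copies was examined for the 22 genes with both. How well the authors' counting separated the copies is not known, and shares are of counts and not of molecules. *Ccno* counts were almost all of the S copy, with an L share of 2.01% and 3.62% with picrotoxin and 3.69% and 3.18% in control. The same held for *cfap20*, at 6.57% and 6.67% with picrotoxin and 6.38% and 8.78% in control. At the other end, the L copy took 98.9% and 97.7% of *ift27* with picrotoxin and 98.8% and 97.3% in control, and *ift27.S* had too few counts to test. *Dnaaf5* was shared about evenly, the L copy taking 47.0% and 52.3% with picrotoxin and 49.3% and 51.7% in control.

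*Foxj1* was near even too, with an L share of 42.5% and 47.0% with picrotoxin and 55.2% and 44.8% in control, control replicate 1 standing apart. *Tekt2* had an L share of 13.9% and 17.2% with picrotoxin and 10.8% and 13.8% in control, and *rfx3* one of 21.6% and 16.9% with picrotoxin and 27.3% and 21.0% in control. Of 19 pairs with both copies tested, the L copy held the larger mean share in 8, and both log2 fold changes had the same sign in 10. *Foxj1.S* lies on chromosome 9_10S, whose median gene stood at 0.05 and 0.04 in the picrotoxin libraries and at 0.01 and -0.09 in the control libraries. With each chromosome's median removed from each library, *foxj1.S* was at -0.07 in place of 0.02. Other genes of that chromosome moved too, *dnah3.S* to 0.06 from 0.15, *rsph10b.S* to 0.11 from 0.20 and *dnah9.S* to -0.27 from -0.18. Other chromosomes also had shifted medians in single libraries, such as 4S at -0.12 in control replicate 1.

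**Figure D5:**
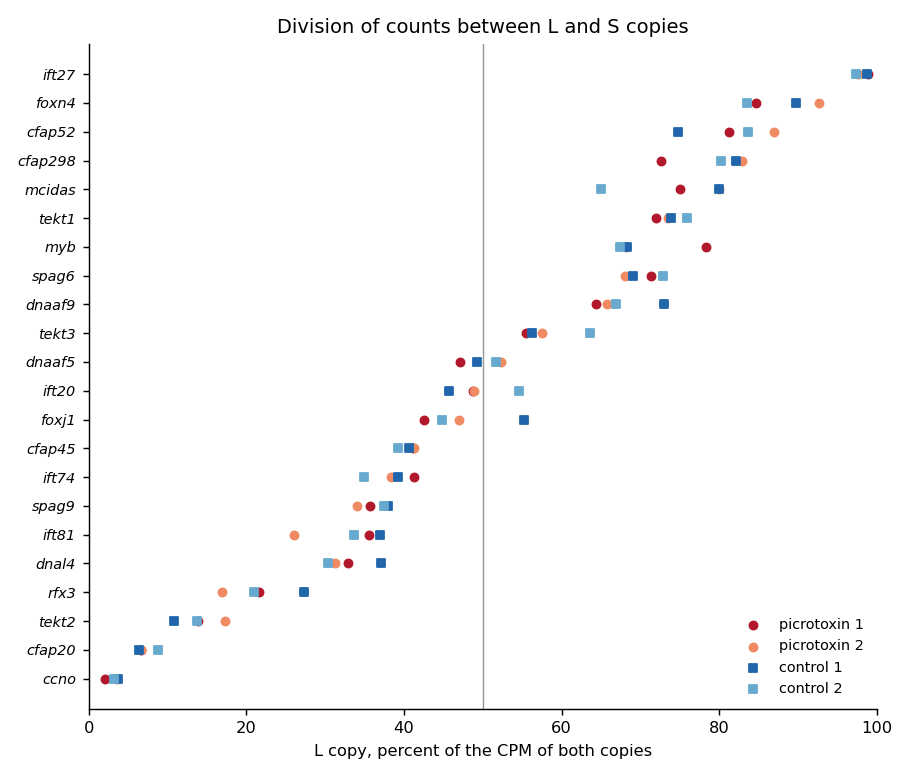
Share of the L copy in the summed CPM of both copies (x axis, percent) for the 22 genes with an L and an S copy (y axis, ordered by mean share), in each picrotoxin library (circles) and control library (squares). Shares run from about 3.13% for *ccno* to 98.2% for *ift27* on average.

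Genes of the same pathway under other symbols had 0 called as well. Other axoneme genes, such as docking complex, nexin link and doublet proteins, had 54 of 58 gene models tested, with 0 called, a median of -0.12 and 43 below 0. Both picrotoxin libraries were below both control libraries for 21 of the 54, beside 18.9% of all genes tested, and above them for 2, beside 18.2%. Without control replicate 1 their median was -0.07, with 31 of 55 below 0, so this list stayed on the lower side where the members did not. Smallest in p were the doublet gene *enkur.L*, with 8.26 and 8.12 CPM with picrotoxin and 11.8 and 9.28 CPM in control (log2 fold change -0.36, adjusted p = 0.576, edgeR), and the nexin link gene *gas8.S*, with 14.97 and 13.9 CPM with picrotoxin and 18.2 and 16.8 CPM in control (-0.28, adjusted p = 0.589). Both were chosen for naming after their values were seen.

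IFT motors, cargo adaptors and train subunits under older symbols had 34 gene models, all tested, with 0 called and a median of -0.06. Both picrotoxin libraries were below both control libraries for 10 of the 34, beside 18.9% of all genes tested, and above for 1, beside 18.2%. This list also stayed on the lower side without control replicate 1, with a median of -0.06 and 24 of 34 below 0. The cargo carrier gene *unc119b.L*, named after its values were seen, had 9.70 and 12.7 CPM with picrotoxin and 15.7 and 15.5 CPM in control (log2 fold change -0.46, adjusted p = 0.285, edgeR). It passed only without picrotoxin replicate 2, the nearer of the picrotoxin libraries to control, at an adjusted p of 0.0409.

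Among markers of other cell types in the pools, 1 epidermis and 1 neural progenitor gene were called. Over all genes tested 0.0822% were called higher and 0.0935% lower. Of 18 epidermis markers tested 1 was called, higher, the keratin gene *krt12.5.S*, with 1139 and 1230 CPM with picrotoxin and 643 and 714 CPM in control (log2 fold change 0.80, adjusted p = 0.000593, edgeR), but not without control replicate 2 or with library totals as the scaling. The list as a whole had a median of 0.00 and sums of 8356 and 9514 CPM with picrotoxin and 8862 and 8081 CPM in control. Ionocyte markers, 17 gene models tested, had 0 called and a summed level of 627 and 674 CPM with picrotoxin and 642 and 660 CPM in control. Goblet and small secretory cell markers, 9 tested, had 0 called and 2643 and 2859 CPM with picrotoxin and 2590 and 2415 CPM in control, so that their sums were higher in both picrotoxin libraries. These sums rest on a few abundant genes, as the median marker had a mean of 4.85 CPM. Both picrotoxin libraries were above both control libraries for 3 of the 9 and below for 2. Over all genes tested these shares were 18.2% and 18.9%. Of the neural progenitor markers, 1 of 18 was called lower, *fabp7.L*, and 18 of 18 were below 0, with a median of -0.44. Their summed level was 468 and 456 CPM with picrotoxin and 554 and 564 CPM in control. At an unadjusted p under 0.05, 11 of the 18 were lower, beside 1113 of all 26752 genes tested. With no filter on low counts 5 of the 18 were called lower, beside 118 of all 35819 genes then tested. The neural progenitor list was chosen with earlier results of these data known, so its counts are a description and not a test.

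Markers of other tissues that hold or border ciliated cells had medians below 0 too, with 0 called. A median below 0 was not particular to these tissues. Blood and myeloid markers were at -0.18, with 8 of 10 below 0, and skeletal muscle markers at -0.03, with 8 of 14 below 0, both with 0 called. Pronephros markers had a median of -0.21, 11 of 14 below 0 and 4 lower at an unadjusted p under 0.05, with sums of 634 and 862 CPM with picrotoxin and 745 and 694 CPM in control. The sugar transporter gene *slc5a9.L* among them was called lower without control replicate 1, without picrotoxin replicate 1 and with no filter on low counts, where *slc5a8.1.L* was called too. Floor plate and notochord markers had a median of -0.13, with 9 of 14 below 0. Their sums were 456 and 477 CPM with picrotoxin and 468 and 438 CPM in control. Both picrotoxin libraries were below both control libraries for 2 of these 14 markers and above for 2. Over all genes tested the shares were 18.9% and 18.2%. Without control replicate 1 the median of these markers was -0.0022, with 7 of 14 below 0. Neuron markers had a median of -0.26, with 11 of 16 below 0. Their sums were 359 and 326 CPM with picrotoxin and 420 and 382 CPM in control. With no filter on low counts 3 of them were called lower, beside 118 of all 35819 genes then tested. With the filter, 5 were lower at an unadjusted p under 0.05. At that p level 1113 of all 26752 genes tested were lower, to be set beside the pronephros and neuron counts. The part of these cell types in the values of the cilia genes was not tested.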

How the data were processed

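Estimated counts for RefSeq transcripts, without scaling, were what the authors deposited, from directional total RNA libraries per the labels' protocols. Not given in the sources used here are the build, the aligner and the counting tool. All 80178 transcripts matched by versioned identifier to the RefSeq genes of Xenopus_laevis_v10.1, and sums per gene were rounded to whole counts, which took the place of the raw gene counts the design planned. Genes were filtered with filterByExpr, scaled with TMM and compared with edgeR 4.0.16 in R 4.3.3 (estimateDisp, glmQLFit with robust = TRUE, glmQLFTest; two-sided; Benjamini-Hochberg over 26752 genes). The biological coefficient of variation was 8.80%. Standard errors were derived from the F statistic, and 95% intervals from the test's degrees of freedom. Levels relative to the 4 libraries are log2 CPM with 0.5 counts added, minus the gene's mean.

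The libraries of a group are separate pools, but whether they came from separate clutches is not stated, so p-values measure the spread between these pools. The pools of a group differed by more than counting noise, with a chi-square of 4.51 (picrotoxin) and 3.56 (control) for each degree of freedom outside ribosomal RNA. DESeq2 1.42.0, other scalings and filters, summed copies, a replicate block and left-out libraries were tried as alternatives. Members and lists were chosen with earlier results of these data known, so medians are descriptions without a test. Named members are those called, the regulators and a choice per class. That choice was the 3 with the highest mean CPM and the 2 highest and 2 lowest log2 fold changes at a mean of at least 1 CPM. Of these named members 50 are printed. Those not printed had log2 fold changes from -0.15 to 0.17, so the printed ones lean to larger changes. *Ift27.S*, *fabp7.L*, *enkur.L*, *gas8.S*, *unc119b.L*, *tppp3.S*, *krt12.5.S*, *slc5a9.L*, *slc5a8.1.L*, *tubb4b* and the genes of the closing observations are outside that rule. Promoter motifs and levels per transcript length were planned and are not analysed here.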

Additional observations from a re-analysis of the deposited data

How the results depend on the processing

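No member was called in any of the 13 alternatives run. The count of called genes over the whole table was 22 with library totals only, 22 with DESeq2, 189 with no filter on low counts and 28 with chromosome medians removed, and 15 to 158 with each library left out. The median of dynein and radial spoke genes ran from -0.164 to 0.0158 and that of transport genes from -0.0803 to -0.0129 with each library left out, and their difference from -0.0911 to 0.0295. Scaling by library totals raised the median of all genes to 0.11, and the 2 classes to 0.0562 and 0.0306. With no filter the transport median was -0.10. Deviations of same-numbered replicates from their group means had a correlation of -0.01 over the genes tested. With 2 libraries per group this is 1 value, which cannot decide whether same-numbered pools shared an origin. With the replicate block 41 genes and 0 members were called. None of the 48 named members with a test was called in any alternative. The sign flipped with library totals for *dnai1.L* (0.0199), *rsph1.L* (0.0666), *ccno.S* (0.0233) and *rfx2.S* (0.0154), and with chromosome medians removed for *dnal4.S* (-0.0030) and *foxj1.S* (-0.0743). It flipped with 1 or more libraries left out for *dnah11.L* (-0.69 to 0.22), *dnah5.L* (-0.35 to 0.0158), *rsph1.L* (-0.24 to 0.10), *rsph10b.S* (-0.0573 to 0.49), *tekt2.L* (-0.0881 to 0.54), *tekt2.S* (-0.39 to 0.0625), *cfap299.L* (-0.79 to 0.0666), *cfap52.S* (-0.61 to 0.0254), *spag17.L* (-0.0929 to 0.45), *ccno.L* (-0.98 to 0.0805), *ccno.S* (-0.24 to 0.0722), *foxj1.S* (-0.12 to 0.15) and *rfx3.S* (-0.31 to 0.0498). The cause was not tested. With 2 pools per group and under 20 counts per library, the 95% intervals of *mcidas.L* and *ccno.L* reached past a 2-fold change.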

Other observations

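Genes of basal body amplification, by which a multiciliated cell makes its many centrioles, had 28 of 34 gene models tested, with 0 called, a median log2 fold change of -0.07 and 18 below 0. At an unadjusted p under 0.05, 2 were higher and 2 lower, beside 895 higher and 1113 lower of all 26752 genes tested. The S copy of the polo kinase gene plk1 had 32.9 and 37.1 CPM with picrotoxin and 28.6 and 28.8 CPM in control (*plk1.S*, log2 fold change 0.29, adjusted p = 0.493, edgeR), while *plk1.L* was at 0.01. The transcription factor gene *e2f4.S*, a partner of multicilin, had 9.003 and 9.85 CPM with picrotoxin and 6.59 and 7.77 CPM in control (0.39, adjusted p = 0.526), while *e2f4.L* was at -0.11. The lower pair were the cell cycle kinase gene *cdk1.S*, with 41.2 and 41.5 CPM with picrotoxin and 53.8 and 44.4 CPM in control (-0.25, adjusted p = 0.604), and the centrin gene *cetn4.L*, with 14.3 and 15.8 CPM with picrotoxin and 17.2 and 18.9 CPM in control (-0.26, adjusted p = 0.656). Both picrotoxin libraries were below both control libraries for 9 of the 28, beside 18.9% of all genes tested, and above for 4, beside 18.2%. Without control replicate 1 the median of this list was -0.10, with 18 of 28 below 0. The defining gene *deup1.L*, for the deuterosome on which centrioles form, had a mean too low to test, as did *gmnc.S*. These genes were chosen for naming after their values were seen.

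Transition zone genes, which gate the base of both motile and immotile cilia, had 23 gene models, all tested, with 0 called, a median of -0.01 and 12 below 0. Its median level relative to the 4 libraries was -0.04 and -0.02 with picrotoxin and 0.00 and 0.04 in control, with control replicate 2 the highest library.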
